A study of Homo sapiens with 8 samples.

Results

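The genes described here are 47 genes of DNA replication, of the entry into S phase (G1/S) and of mitosis, taken by symbol from a list that was drawn up with earlier results of these data known, by a rule that uses no measured value. All 47 were found among the 20719 gene IDs of the count tables, and all 47 passed the expression filter that left 11097 genes for testing. They were grouped by role into 10 genes of origin licensing, 6 of helicase activation, 7 of DNA synthesis, 6 of G1/S control, 11 of G2/M control and 7 of the mitotic apparatus. The libraries hold ribosome footprints of G401, a kidney rhabdoid tumor line that lacks the chromatin remodeling subunit SMARCB1. One G401 derivative carries a Tet-On transgene for SMARCB1 and the other a Tet-On transgene for GFP, so that doxycycline switches on the respective protein. Each derivative received 0.1 μg/ml doxycycline (Dox) or the solvent DMSO for 12 h, giving the groups SMARCB1 DMSO, SMARCB1 Dox, GFP DMSO and GFP Dox with 2 libraries in each of the 4 groups. All 4 groups share the SMARCB1-deficient tumor background. The GFP line shows doxycycline together with GFP induction, without SMARCB1, and drug and GFP cannot be told apart there. The sources used here do not say whether a derivative is 1 clone. Plates of a condition were pooled before ribosome isolation. The study's methods speak of duplicate experiments without saying at which step the duplicates part, so p-values measure the spread between these libraries, which may be technical.

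Replication starts when the origin recognition complex, CDC6 and CDT1 load the MCM2 to MCM7 ring onto DNA, and when CDC45 and the GINS complex turn that ring into the active helicase. E cyclins with CDK2 relieve the block that the RB1 protein places on E2F transcription factors, which drive the genes of DNA synthesis, whereas mitotic genes are switched on later by FOXM1 and by repressors letting go of an element called the CHR. SMARCB1 re-expression is known to slow the cycle of rhabdoid cells through the p16, cyclin D and RB pathway, and proliferation genes fall when cells leave the cycle.

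Most members lie behind promoters with the letters of these regulators, which are shown here because they separate replication from mitosis genes without any use of the footprint values. Of the 47 members, 37 had a RefSeq promoter window (250 bases before to 50 after the start, GRCh38.p14) within 500 bases of the start of their reference transcript, as did 14832 genes in all. The letters searched on both strands were TTTCCCGC, TTTCGCGC, TTTGCCGC and TTTGGCGC for E2F, TTTGAA for the CHR and CCAAT for the factor NF-Y. The E2F letters and their reverse complements can overlap each other. E2F letters were found in 12 of 20 replication members (60.0%), in 1 of 14 mitosis members (7.14%) and in 4.65% of all promoters. CHR letters showed the opposite split, with 1 of 20 replication members (5.0%), 9 of 14 mitosis members (64.3%) and 11.5% of all promoters. CCAAT was found in 80.0% of replication members and 85.7% of mitosis members, against 36.9% of all promoters. CHR and CCAAT stood together in 8 of 14 mitosis members (57.1%) and in 4.9% of all promoters. A match of letters is a description of the sequence and not a bound site. Below are the 250 bases before the start for 5 members, read 5′ to 3′ on the strand of the gene, with matches in capitals (E2F, CHR or CCAAT in either orientation).
MCM6, chr2:135876444-135876693, reverse strand: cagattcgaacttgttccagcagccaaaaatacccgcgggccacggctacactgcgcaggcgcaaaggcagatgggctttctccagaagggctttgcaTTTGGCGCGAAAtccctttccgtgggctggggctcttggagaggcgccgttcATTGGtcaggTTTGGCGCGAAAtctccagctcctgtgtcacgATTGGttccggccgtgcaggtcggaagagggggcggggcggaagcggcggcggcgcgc
MCM3, chr6:52284743-52284992, reverse strand: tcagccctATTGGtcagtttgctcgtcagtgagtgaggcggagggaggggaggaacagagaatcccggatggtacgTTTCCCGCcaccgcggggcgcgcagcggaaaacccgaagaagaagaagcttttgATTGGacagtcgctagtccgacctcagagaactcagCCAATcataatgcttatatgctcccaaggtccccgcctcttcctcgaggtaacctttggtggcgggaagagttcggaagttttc
CDK1, chr10:60778228-60778477, forward strand: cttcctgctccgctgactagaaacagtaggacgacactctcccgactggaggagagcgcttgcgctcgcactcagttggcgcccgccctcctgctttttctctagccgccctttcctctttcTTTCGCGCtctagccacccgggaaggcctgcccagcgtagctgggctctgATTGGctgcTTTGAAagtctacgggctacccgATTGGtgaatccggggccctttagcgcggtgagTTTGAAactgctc
CDC20, chr1:43358731-43358980, forward strand: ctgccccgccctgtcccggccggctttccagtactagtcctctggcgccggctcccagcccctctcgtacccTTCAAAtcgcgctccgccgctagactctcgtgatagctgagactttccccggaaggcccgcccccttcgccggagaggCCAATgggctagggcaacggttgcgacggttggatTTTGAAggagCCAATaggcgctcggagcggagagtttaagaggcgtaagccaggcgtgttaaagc
CCNB2, chr15:59104896-59105145, forward strand: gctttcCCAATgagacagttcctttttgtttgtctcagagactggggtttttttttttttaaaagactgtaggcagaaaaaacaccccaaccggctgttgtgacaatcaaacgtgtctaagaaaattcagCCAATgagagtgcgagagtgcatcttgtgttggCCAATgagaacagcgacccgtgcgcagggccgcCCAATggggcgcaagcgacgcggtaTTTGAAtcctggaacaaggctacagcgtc
MCM6 carries overlapping E2F matches on opposite strands (TTTGGCGC and the reverse complement of TTTCGCGC) at -152 to -141 and again at -90 to -79. Positions are counted back from -1 at the base before the start. CDK1, CDC20 and CCNB2 carry CHR letters at -69 to -64, at -65 to -60 and at -29 to -24, each with CCAAT letters in the same stretch, and CDK1 holds an E2F match at -128 to -121 as well.

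Each library held between 5924443 and 14000039 counts on genes. SMARCB1 itself had 2553 and 1750 counts in SMARCB1 Dox and 0 in each of the 6 other libraries. VIM, a mesenchymal marker present in this tumor type, stood at 1056 to 3170.1 CPM, and the leukocyte and liver markers PTPRC, CD3E and ALB had 0 counts. The epithelial marker EPCAM ranged from 0 to 1.59 CPM and the erythroid marker HBB from 0 to 0.16 CPM. Reads with more than 1 alignment made up 56.4% of the entries in GFP Dox 1 (group and replicate number) and 25.6% to 39.7% in the others. GFP Dox 1 was the lowest or the highest library for 26 of 47 members (55.3%), against 47.4% of all genes tested. Results that rest on it are therefore marked, some with a value without it as well. Replicates differed by more than counting noise in every group.

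Values per library are CPM, footprint counts scaled to a total of 1000000 counts on genes. The members together took 1.09% to 1.2% of the counts on genes. CENPF, a kinetochore protein of mitosis, held the most footprints, with 1210.0 to 1381 CPM and a median of 1291 CPM over the 8 libraries. The lowest was E2F2, an activator of S-phase genes, with 2.89 to 7.31 CPM. The lowest count of any member in any library was 26, and 43 members had at least 100 counts in every library, so counting error is small for all but a few. Per kilobase of coding sequence, the median member had 69.0 CPM and the median of all genes tested 18.7 CPM. TYMS, which makes thymidylate for DNA synthesis, was the densest at 1015 ± 230.2 CPM per kilobase (SD over the 8 libraries), and E2F2 the sparsest at 3.49 ± 1.11.

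**Figure D1:**
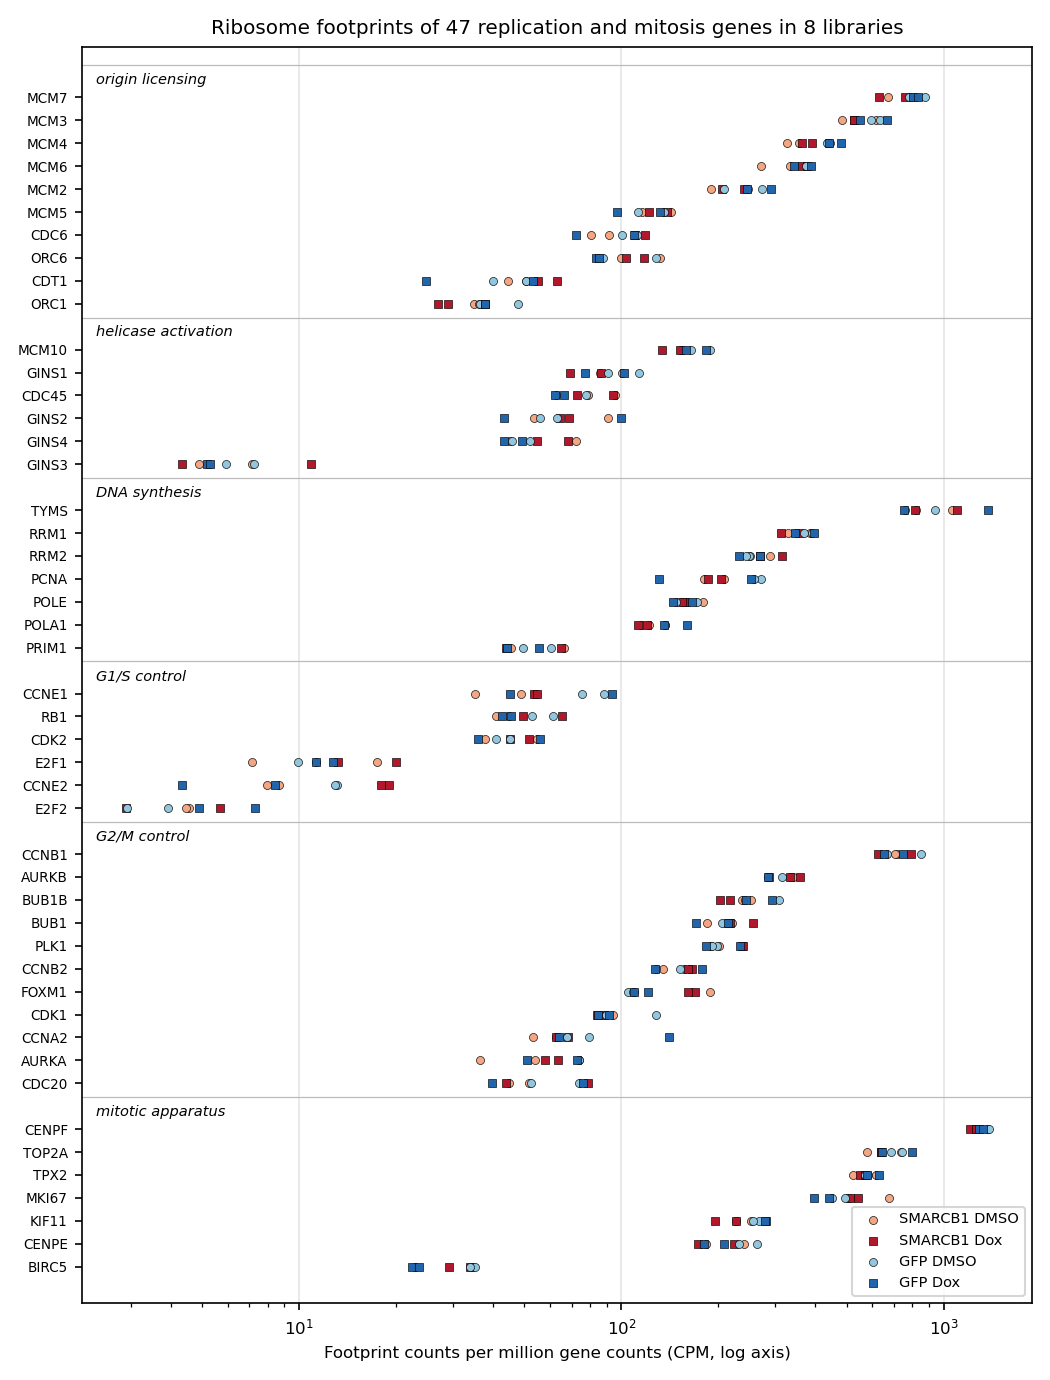
Footprint CPM (log axis) of the 47 members in each of the 8 libraries, ordered by role and by median, with 1 point per library and colors for the 4 groups. Within most members the points of the groups mix, CCNE2 shows both SMARCB1 Dox points to the right of all others, and CCNA2 shows 1 GFP Dox point (141 CPM) apart from the rest.

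The first question is whether SMARCB1 changes the footprints of the cell cycle machinery within 12 h. No member passed the test of that difference. Of the 47 members, 0 were called higher or lower in SMARCB1 Dox than in SMARCB1 DMSO, at an adjusted p-value below 0.05 (edgeR's quasi-likelihood test over all 11097 genes, Benjamini-Hochberg) and a fold change above 2, and 0 without the fold minimum. Of all genes tested, 0.018% were called. An unadjusted p-value below 0.05 was reached by 1 member, CCNE2, which is 2.13% of members against 4.97% of all genes, and DESeq2 also called 0 members. The median log2 difference of the members was -0.11, with 18 above 0 and 29 below, and the median of all genes was -0.02. With library size alone as the scaling, the median of all genes shifted by 0.11, that of the members rose to 0.01 and 25 members lay above 0, whereas 18 members lay above the median of all genes under either scaling. In bulk libraries, fewer cells in a phase of the cycle and fewer footprints per cell cannot be told apart. The study's RNA-seq was not used here, so mRNA level and translation cannot be told apart either.

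For most members these libraries left room for changes of less than 2-fold relative to the other genes. A shift shared by all genes cannot be seen in such scaled values. For 41 of the 47 (87.2%) the 95% interval of the log2 difference lay between -1 and 1, that is within a 2-fold change in either direction, as it did for 55.0% of all genes. The other 6 members were ORC1, GINS2, GINS3, E2F1, E2F2 and CCNE2. The median standard error was 0.25 for the members and 0.31 for all genes, and a smaller error gives a narrower interval. In CPM, both SMARCB1 Dox libraries lay above both SMARCB1 DMSO libraries for 11 members (23.4%) and below them for 5 members (10.6%). The corresponding shares of all genes were 23.9% and 11.2%, close to those of the members.

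Origin licensing genes split in both directions, with 4 of 10 above 0 (6 of 10 with library size alone) and none past the test. CDC6, the ATPase that helps to load the helicase, had 91.5 and 80.4 CPM in SMARCB1 DMSO, 110.0 and 118 CPM in SMARCB1 Dox, 112 and 100.1 CPM in GFP DMSO and 72.1 and 109 CPM in GFP Dox. Its SMARCB1 Dox libraries were above its SMARCB1 DMSO libraries, and in the GFP line 1 Dox library was below and 1 among the controls. The log2 difference of CDC6 in the SMARCB1 line was 0.30 (standard error 0.23), and its adjusted p was 1 in edgeR's test. ORC1, the largest subunit of the origin recognition complex, lay at the other end with 34.8 and 36.1 CPM in SMARCB1 DMSO, 28.9 and 26.97 CPM in SMARCB1 Dox, 47.9 and 36.4 CPM in GFP DMSO and 37.8 and 37.6 CPM in GFP Dox. Both SMARCB1 Dox libraries of ORC1 were the lowest of the 8, yet the log2 difference of -0.45 (standard error 0.26) had a 95% interval of -1.01 to 0.11 and an adjusted p of 1 in edgeR's test. The remaining licensing genes, with the 6 MCM subunits, ORC6 and the loader CDT1, had log2 differences of -0.19 (MCM7) to 0.21 (CDT1).

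Helicase activation genes lay mostly a little below 0, with 5 of 6 lower (4 of 6 with library size alone as the scaling) and none passing the test. GINS1 had 86.1 and 100.4 CPM in SMARCB1 DMSO, 86.3 and 69.3 CPM in SMARCB1 Dox, 114 and 90.9 CPM in GFP DMSO and 102 and 77.1 CPM in GFP Dox, a log2 difference of -0.37 (standard error 0.27) in the SMARCB1 line. Its libraries overlapped between SMARCB1 Dox and SMARCB1 DMSO. GINS3, another subunit of the GINS complex, had 4.89 and 7.15 CPM in SMARCB1 DMSO and 10.9 and 4.33 CPM in SMARCB1 Dox, and its log2 difference of 0.23 (standard error 0.48) turned to -0.62 without SMARCB1 Dox 1. CDC45, which completes the helicase, stood at -0.18, and MCM10, which helps to start it, at -0.20.

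Among the genes of DNA synthesis, 6 of 7 had a log2 difference below 0 (4 of 7 with library size alone), and the 7 lay between -0.24 and 0.01. RRM2, the small subunit of ribonucleotide reductase, had 250.2 and 289 CPM in SMARCB1 DMSO and 316 and 269 CPM in SMARCB1 Dox in the SMARCB1 line. These values overlap, and the log2 difference was 0.01 (standard error 0.25). POLE, the catalytic subunit of the leading-strand polymerase, had 161 and 179 CPM in SMARCB1 DMSO and 156 and 154 CPM in SMARCB1 Dox. Both Dox libraries of POLE were below both DMSO libraries, with a log2 difference of -0.24 (standard error 0.22) and an adjusted p of 1 in edgeR's test. PCNA, the sliding clamp, stood at -0.11 and TYMS at -0.08.

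**Figure D2:**
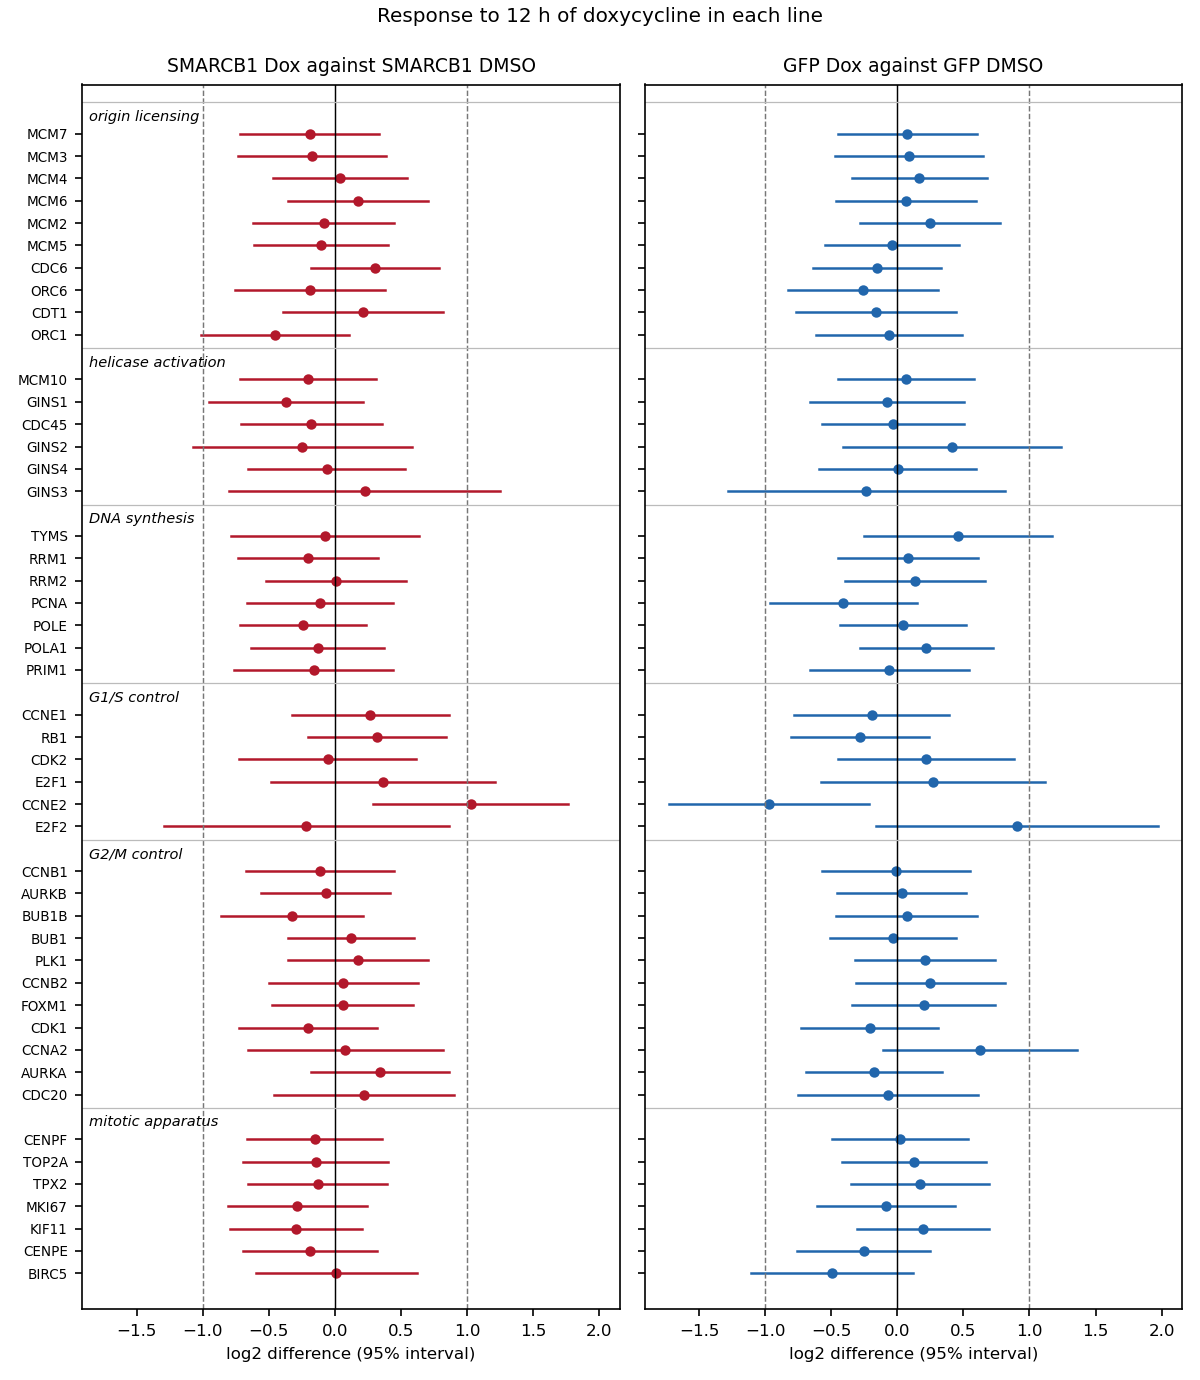
Log2 difference between Dox and DMSO with its 95% interval for each of the 47 members in the SMARCB1 line (left) and the GFP line (right), from the edgeR fit of all 8 libraries. Dashed lines mark a 2-fold change. In both panels the intervals of all members but CCNE2 include 0, and CCNE2 lies at 1.03 in the left panel and at -0.97 in the right one.

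The G1/S control genes held the member with the largest difference. CCNE2 encodes cyclin E2, a partner of CDK2 at the start of S phase, and had 7.93 and 8.69 CPM in SMARCB1 DMSO, 17.9 and 18.98 CPM in SMARCB1 Dox, 13.1 and 12.9 CPM in GFP DMSO and 4.33 and 8.40 CPM in GFP Dox. Both SMARCB1 Dox libraries were the highest of the 8, and both GFP Dox libraries lay below both GFP DMSO libraries. The log2 difference of CCNE2 was 1.03 (standard error 0.34) in the SMARCB1 line, with an unadjusted p of 0.00965 and an adjusted p of 0.666 in edgeR's test. In the GFP line it was -0.97 (standard error 0.35), with an adjusted p of 1 in edgeR's test, and it was -0.67 without GFP Dox 1 and -1.36 without GFP Dox 2. The difference between both Dox effects, tested as an interaction, was 1.999 (standard error 0.493) with an adjusted p of 0.977 in edgeR's test. This interaction passed the correction over all genes in 1 setting, without GFP Dox 2, where it was 2.39 with an adjusted p of 0.0425 in edgeR's test. In that setting GFP Dox 1, the library with the lowest CCNE2 value and the high share of reads with more than 1 alignment, stands alone for its group and is assumed to vary like the other groups. Without GFP Dox 1 the interaction was 1.70, with an adjusted p of 1 in edgeR's test. CCNE2 is a low gene here, with 30 counts in its lowest library.

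Other G1/S genes did not pass. CCNE1, the sister cyclin E1, had log2 differences between Dox and DMSO of 0.27 (SMARCB1 line) and -0.20 (GFP line). RB1, the brake on E2F, had 44.7 and 40.9 CPM in SMARCB1 DMSO, 65.2 and 49.5 CPM in SMARCB1 Dox, 61.5 and 52.7 CPM in GFP DMSO and 42.7 and 45.4 CPM in GFP Dox. It was higher with Dox in both SMARCB1 libraries and lower with Dox in both GFP libraries, at log2 differences of 0.32 (standard error 0.24) and -0.28 (standard error 0.24), with an adjusted p of 1 for both in edgeR's test. E2F2 had 4.56 and 4.45 CPM in SMARCB1 DMSO and 2.89 and 5.66 CPM in SMARCB1 Dox, and its log2 difference of -0.22 (standard error 0.50) ranged from -0.74 to 0.22 as single libraries were left out. E2F1 stood at 0.36 and CDK2 at -0.06.

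For G2/M control, 7 of 11 genes lay above 0 (8 of 11 with library size alone) and none passed. AURKA, the kinase of spindle poles, had 53.8 and 36.3 CPM in SMARCB1 DMSO, 57.9 and 63.8 CPM in SMARCB1 Dox, 73.7 and 73.6 CPM in GFP DMSO and 51.1 and 72.8 CPM in GFP Dox. The SMARCB1 Dox libraries were above the SMARCB1 DMSO libraries, below the GFP DMSO libraries and between both GFP Dox libraries. Its log2 difference was 0.34 (standard error 0.24) in the SMARCB1 line, 0.58 without SMARCB1 DMSO 1 and 0.12 without SMARCB1 DMSO 2. Only 68.6% of its coding sequence consists of 30-base windows found once in the genome, so reads may be lost to copies. BUB1B, a spindle checkpoint protein, had 252 and 237 CPM in SMARCB1 DMSO and 217 and 202 CPM in SMARCB1 Dox, a log2 difference of -0.33 (standard error 0.25) with both Dox libraries lower. Its coding sequence shares 217 bases with the read-through gene BUB1B-PAK6. CDK1, the kinase that drives mitosis, and its partners CCNB1 and CCNB2 had log2 differences of -0.20, -0.11 and 0.06. The mitotic regulators PLK1 and CDC20 lay at 0.17 and 0.22.

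In the mitotic apparatus, 6 of 7 genes were below 0 under each scaling, and none passed. KIF11, the motor that separates spindle poles, had 226 and 253 CPM in SMARCB1 DMSO, 195 and 227 CPM in SMARCB1 Dox, 267 and 257 CPM in GFP DMSO and 282 and 278 CPM in GFP Dox. Its log2 difference was -0.30 (standard error 0.23) with SMARCB1 and 0.19 (standard error 0.23) with GFP. BIRC5, which encodes survivin, had 22.96 and 34.2 CPM in SMARCB1 DMSO and 29.2 and 33.97 CPM in SMARCB1 Dox, with overlapping libraries and a log2 difference of 0.01 (standard error 0.28) that ranged from -0.29 to 0.41 as single libraries were left out. MKI67, the antigen Ki-67 by which dividing cells are counted, stood at -0.29 and TOP2A, the topoisomerase that untangles chromosomes, at -0.14.

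Doxycycline with GFP induction, without SMARCB1, gave no call either. In GFP Dox against GFP DMSO, 0 of 47 members were called by edgeR, as were 0.0% of all genes, and 1 member (2.13%, all genes 2.16%) had an unadjusted p-value below 0.05, again CCNE2. DESeq2 also called 0 members there. The median log2 difference was 0.03 (26 above 0), and that of all genes 0.02. The 95% intervals lay within a 2-fold change for 39 members (83.0%, all genes 57.9%), with median standard errors of 0.25 for the members and 0.31 for all genes. In CPM, both GFP Dox libraries were above both GFP DMSO libraries for 3 members (6.38%, all genes 9.16%) and below them for 10 (21.3%, all genes 16.3%), among the latter AURKA, BIRC5, PCNA and RB1. CCNA2, the S- and G2-phase cyclin, had 79.1 and 68.00 CPM in GFP DMSO and 141 and 63.9 CPM in GFP Dox in the GFP line. GFP Dox 1 held the highest CCNA2 value of the 8 libraries, and CCNA2 was called in the GFP line when GFP Dox 2 was left out, so that this call rests on GFP Dox 1 alone. That library also had the high share of reads with more than 1 alignment, whose part in the CCNA2 value was not tested. The difference between the Dox effects of both lines was called by edgeR for 0 members and for 0.0% of all genes. DESeq2 also called 0, and CCNE2 was the 1 member (2.13%, all genes 3.99%) with an unadjusted p-value below 0.05. The median difference of the members was -0.13 (all genes -0.03), with 16 above 0, and with library size alone it was 0.08 (all genes 0.16). Both Dox effects enter this difference, so the 3 comparisons share libraries.

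In CPM, the sum over all 47 members in SMARCB1 Dox was 1.003 times that in SMARCB1 DMSO, and 0.987 times in the GFP line. These ratios depend on the scaling, as those of the roles below do, and with TMM-scaled totals they are not given here. The G1/S control genes had the largest ratio of the 6 roles in the SMARCB1 line, with summed CPM of 161 and 151 in SMARCB1 DMSO, 204 and 194 in SMARCB1 Dox, 221 and 197 in GFP DMSO, 164 and 203 in GFP Dox. Both SMARCB1 Dox sums lay above both SMARCB1 DMSO sums and within the range of the GFP libraries, and the ratio of 1.28 was 1.18 with TMM-scaled totals. Mitotic apparatus genes gave 3517 and 3633 in SMARCB1 DMSO, 3390.2 and 3419.8 in SMARCB1 Dox, 3713 and 3657 in GFP DMSO, 3598 and 3494 in GFP Dox, and the Dox libraries were below the DMSO libraries in both lines (ratios 0.953 and 0.962). With TMM-scaled totals these ratios were 0.883 and 1.03, so the direction in the GFP line depends on the scaling. The sum of the 23 replication genes divided by that of the 18 mitosis genes ranged from 0.842 in SMARCB1 DMSO 1 to 0.996 in GFP Dox 1, with 0.92 and 0.883 in SMARCB1 Dox, inside the range of the SMARCB1 DMSO libraries (0.842 and 0.927).

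**Figure D3:**
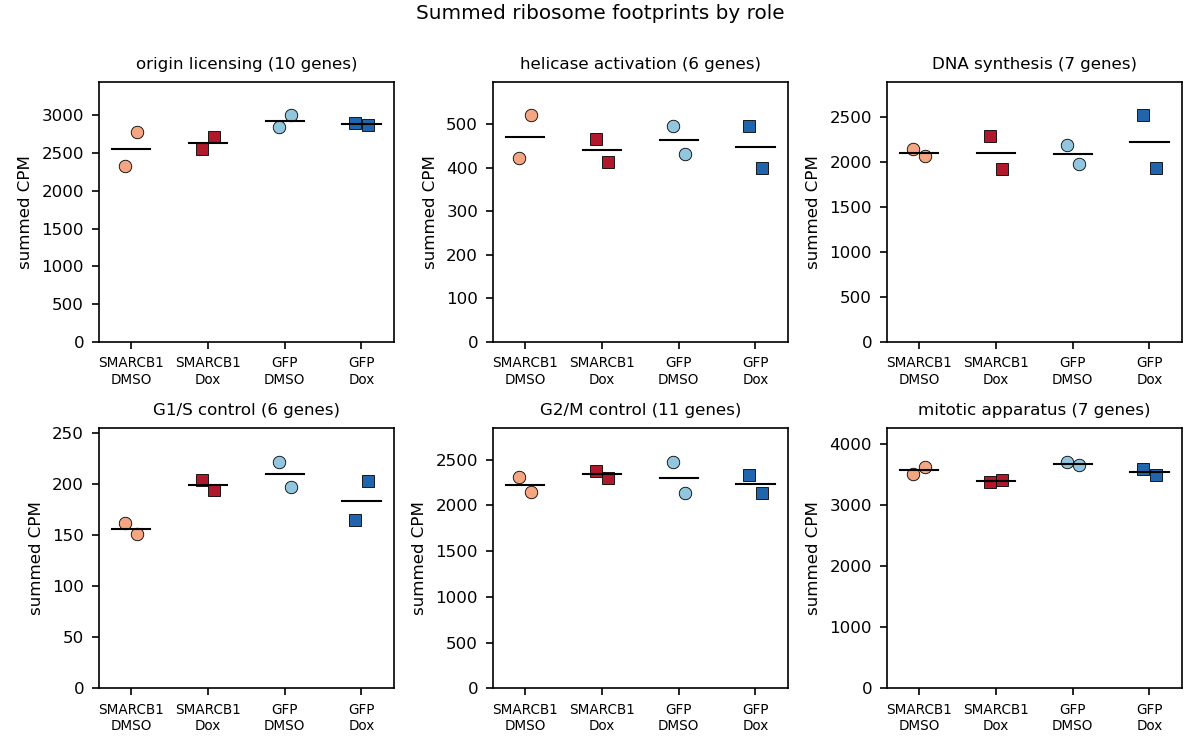
Summed CPM of the members of each role in each library (points) with the mean of both libraries of a group (line), on axes that start at 0. The G1/S control panel shows the SMARCB1 DMSO points (161 and 151) below the other groups, and in the other panels the groups lie close together on this scale.

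Subunits of the same complex did not carry the same footprint density, and their order was kept in most libraries. In the MCM2 to MCM7 ring, which takes up its subunits in equal numbers, MCM7 had 356 ± 37.04 CPM per kilobase (SD over the 8 libraries, 293 to 404). MCM3 followed with 237 ± 26.02 CPM per kilobase (SD over the 8 libraries, 199 to 275). MCM5 was lowest with 56.5 ± 7.07 CPM per kilobase (SD over the 8 libraries, 43.95 to 64.7). Between them lay MCM4 at 156, MCM6 at 143 and MCM2 at 87.5 CPM per kilobase. This order held in 7 of 8 libraries, and the pair MCM4 and MCM6 did not differ beyond its spread, with a ratio of 1.09 ± 0.0985 (SD, 0.923 to 1.22). The ratio of MCM7 to MCM5 was 6.31 and ranged from 5.30 to 8.45, the last in GFP Dox 1.

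The GINS complex, whose subunits also meet in equal numbers, was less even. GINS1 had 154 ± 24.3 CPM per kilobase (SD over the 8 libraries, 118 to 193), and GINS3 had 9.82 ± 3.23 CPM per kilobase (SD over the 8 libraries, 6.68 to 16.8). The ratio of GINS1 to GINS3 was 15.7 and ranged from 8.74 in SMARCB1 Dox 1 to 21.6 in GFP Dox 1. GINS2 (122), GINS4 (80.4) and CDC45 (44.9 CPM per kilobase) lay between them. GINS1 was denser than GINS2 in 7 of 8 libraries (ratio 1.33 ± 0.311, SD, 0.964 to 1.70). As only 83.8% of the GINS2 coding sequence is unique, the ratio on unique length was 1.08.

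For ribonucleotide reductase, RRM2 had 227 ± 23.5 CPM per kilobase (SD over the 8 libraries, 198 to 271) and RRM1 152 ± 12.4 CPM per kilobase (SD over the 8 libraries, 132 to 167). RRM2 was denser in 8 of 8 libraries, with a ratio of 1.49, and as only 71.4% of its coding sequence is unique the ratio on unique length was 2.08. The ratio was higher in each SMARCB1 Dox library (1.81 and 1.75) than in any other library (1.30 to 1.55). This was noticed in the values and was not tested. PRIM1, the primase subunit, exceeded POLA1, the polymerase α subunit, in 7 of 8 libraries (ratio 1.45), with 0.963 in GFP Dox 1, and PRIM1 shares 362 coding bases with another annotated gene. CCNB1 had 554 ± 58.4 CPM per kilobase (SD over the 8 libraries, 481 to 656), CCNB2 126 and CDK1 105 CPM per kilobase, and the latter pair did not differ beyond its spread (ratio 1.22 ± 0.241, SD). AURKB and BIRC5 of the chromosomal passenger complex differed by a ratio of 4.45 (3.46 to 5.99), AURKB being higher in 8 of 8 libraries.

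**Figure D4:**
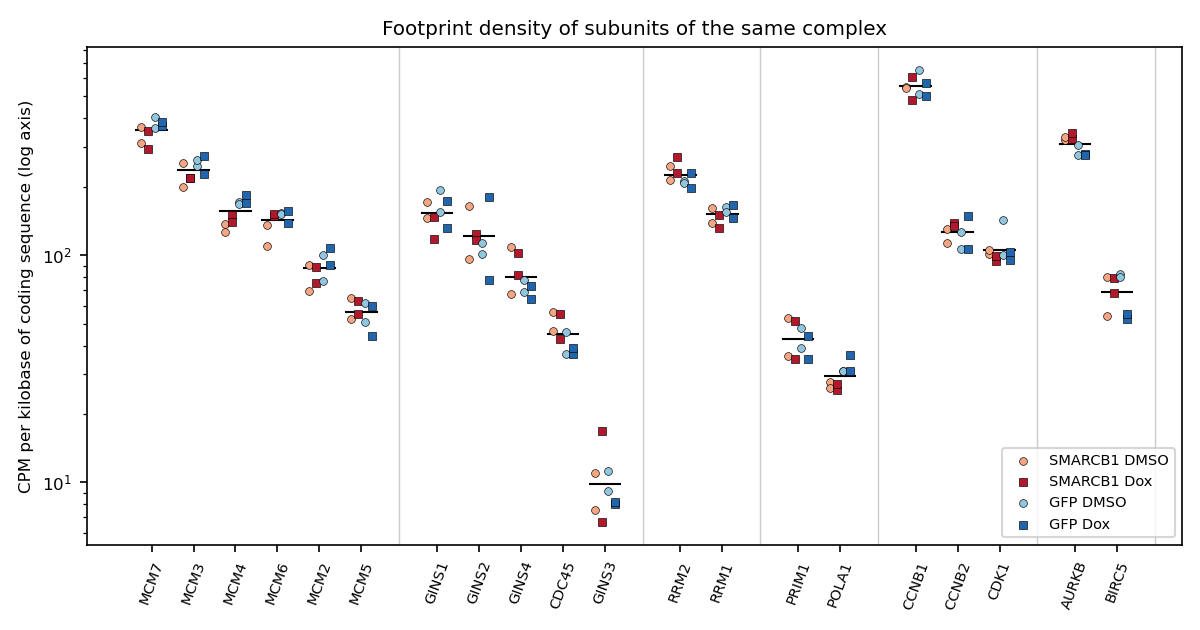
Footprint density (CPM per kilobase of coding sequence, log axis) of subunits of 6 complexes in each library, with the mean of the 8 libraries as a line. MCM7 to MCM5 spans 356 to 56.5 and GINS1 to GINS3 spans 154 to 9.82, while the points of one gene spread over much less, GINS3 having the widest spread.

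The lines differed before any induction for many genes, but no member was called. In SMARCB1 DMSO against GFP DMSO, 0 of 47 members were called by edgeR, and 4.97% of all genes were. An unadjusted p-value below 0.05 was reached by 2 members (4.26%, all genes 13.9%), CCNE1 and AURKA, and DESeq2 called 0 members. The median log2 difference of the members was -0.04, with 20 above 0, and that of all genes 0.02. In CPM, both SMARCB1 DMSO libraries lay above both GFP DMSO libraries for 6 members (12.8%, all genes 18.5%) and below them for 15 (31.9%, all genes 26.9%). CCNE1 (chr19:29811991-29824312, GRCh38) had 48.9 and 35.1 CPM in SMARCB1 DMSO, 53.4 and 54.8 CPM in SMARCB1 Dox, 88.6 and 75.5 CPM in GFP DMSO and 45.1 and 93.2 CPM in GFP Dox. Its SMARCB1 DMSO libraries were below both GFP DMSO libraries, and GFP Dox 1 was below its partner as well. The log2 difference between the lines under DMSO was -0.91 (standard error 0.28), with an adjusted p of 0.0843 in edgeR's test. Under the alternative fits CCNE1 had adjusted p-values of 0.0226 to 0.13 in edgeR and DESeq2, and from 0.0184 (without GFP Dox 1) to 0.538 (without GFP DMSO 1) as single libraries were left out. In none of these settings did CCNE1 pass both the p-value and the fold minimum. Under Dox the difference was -0.45 (standard error 0.28).

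Several members of other roles lay at the ends of their groups in this comparison. AURKA (chr20:56369389-56392337, GRCh38) had a log2 difference of -0.66 (standard error 0.24) and an adjusted p of 0.182 in edgeR's test, with both SMARCB1 DMSO libraries (53.8 and 36.3 CPM) below both GFP DMSO libraries (73.7 and 73.6 CPM). FOXM1, the activator of mitotic genes, had 188 and 109 CPM in SMARCB1 DMSO and 105 and 109 CPM in GFP DMSO, a log2 difference of 0.53 (standard error 0.25). SMARCB1 DMSO 1 stands far above the other 3 DMSO libraries of FOXM1, and without it the difference was 0.16. Both SMARCB1 Dox libraries of FOXM1 (169 and 161 CPM) were also above both GFP Dox libraries (109 and 121 CPM). The log2 difference under Dox was 0.39 (standard error 0.25), with an adjusted p of 0.446 in edgeR's test. MKI67 had 510.3 and 676 CPM in SMARCB1 DMSO and 452 and 495 CPM in GFP DMSO, a log2 difference of 0.40 (standard error 0.25) that was 0.12 without SMARCB1 DMSO 2 and 0.64 without SMARCB1 DMSO 1. PCNA had 180.4 and 209 CPM in SMARCB1 DMSO, 186 and 204 CPM in SMARCB1 Dox, 270.4 and 258 CPM in GFP DMSO and 131 and 252 CPM in GFP Dox, with the SMARCB1 line below GFP DMSO and GFP Dox 1 the lowest of the 8. Its log2 difference under DMSO was -0.37 (standard error 0.26). The other extremes of their roles were MCM4 (-0.29), ORC6 (0.18), CDC45 (0.39), MCM10 (-0.14), TYMS (0.21), E2F2 (0.46) and BIRC5 (-0.18), and none of them passed the test.

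Under Dox, 1 of 47 members was called between the lines, CCNE2, against 6.08% of all genes. CCNE2 was higher in SMARCB1 Dox than in GFP Dox by a log2 difference of 1.43 (standard error 0.36), with an adjusted p of 0.0246 in edgeR's test, from 17.9 and 18.98 CPM in SMARCB1 Dox and 4.33 and 8.40 CPM in GFP Dox. Under DMSO it was -0.57 (standard error 0.34) with an adjusted p of 0.544 in edgeR's test. The call was lost without SMARCB1 Dox 1 (1.47, adjusted p = 0.137), without SMARCB1 Dox 2 (1.40, 0.143), without GFP Dox 1 (1.13, 0.124) and without GFP DMSO 1 (1.43, 0.0538), all in edgeR's test. Over the other settings the adjusted p ranged from 0.00545 to 0.0871 in edgeR and DESeq2. Unadjusted p-values below 0.05 in edgeR's test were found for 4 members (8.51%, all genes 18.7%). Besides CCNE2 these were ORC1 (-0.57), KIF11 (-0.55) and CCNA2 (-0.83), all lower in the SMARCB1 line. The CCNA2 libraries overlapped, with 62.6 and 68.3 CPM in SMARCB1 Dox and 141 and 63.9 CPM in GFP Dox. Its difference rests on GFP Dox 1, as GFP Dox 2 lay between both SMARCB1 Dox libraries. CCNA2 was called lower only without GFP Dox 2, where GFP Dox 1 stands alone for its group. In CPM, the SMARCB1 Dox libraries were both above the GFP Dox libraries for 15 members (31.9%, all genes 27.9%) and both below them for 12 (25.5%, all genes 17.2%). Of the licensing genes, CDC6, CDT1 and ORC6 were above, ORC1, MCM2, MCM3, MCM4 and MCM7 were below, and MCM5 and MCM6 overlapped. The median log2 difference of the members was -0.12 and that of all genes -0.01, and with library size alone these were 0.02 and 0.11.

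Across the 47 members, the log2 differences between the lines under DMSO and under Dox were compared, as these share no library. Pearson's r was 0.0979 and Spearman's rho 0.282. CCNE2, at -0.57 under DMSO and 1.43 under Dox, is among these members. The members ranged from -0.91 to 0.53 under DMSO, and all genes tested from -11.6 to 11.9. Over the 11050 other genes tested, r was 0.768 and rho 0.482. These are descriptions across genes, which are not independent replicates, and the points of one comparison share their libraries and scaling.

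**Figure D5:**
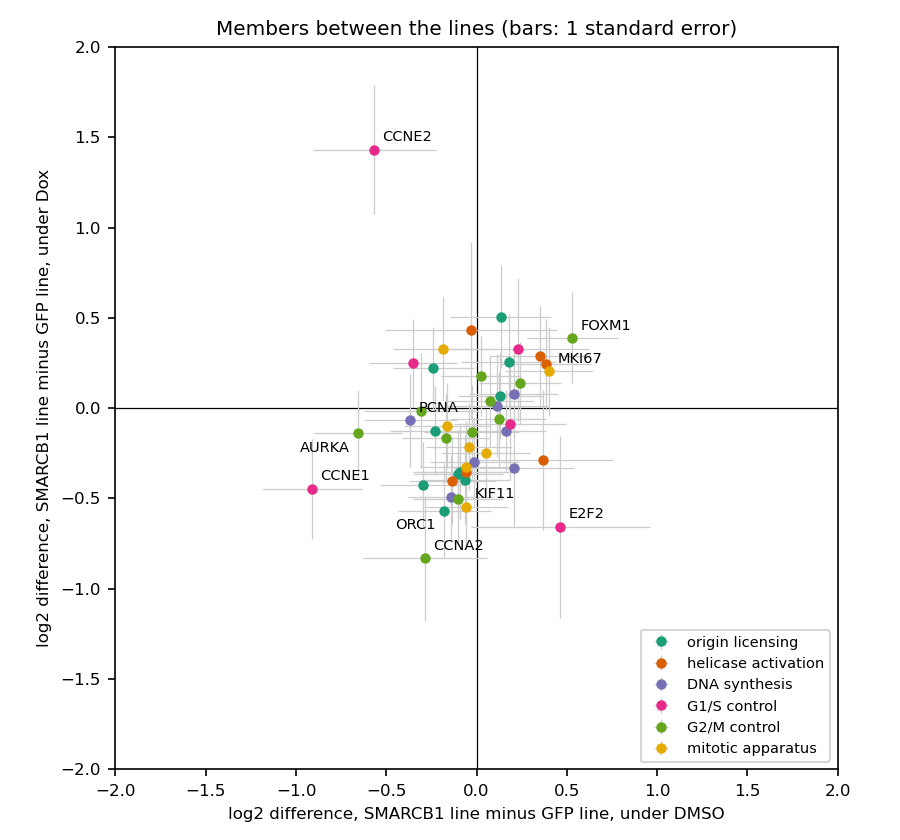
Log2 difference between the SMARCB1 line and the GFP line under DMSO (x) and under Dox (y) for the 47 members, with bars of 1 standard error from the edgeR fit. Most members lie near 0 on both axes, CCNE2 stands apart at -0.57 and 1.43, and CCNE1 at -0.91 and -0.45.

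A second list held 132 further genes of the same processes, of which 129 passed the expression filter (44 of replication, 19 of G1/S, 66 of mitosis). In SMARCB1 Dox against SMARCB1 DMSO, edgeR and DESeq2 each called 0, 0 had an unadjusted p-value below 0.05 in edgeR's test (all genes 4.97%), and the median log2 difference was -0.06. In GFP Dox against GFP DMSO, edgeR and DESeq2 each called 0, and 2 had an unadjusted p-value below 0.05 (1.55%, all genes 2.16%). For the difference between the Dox effects, edgeR and DESeq2 each called 0, and 0 had an unadjusted p-value below 0.05 (all genes 3.99%). Between the lines under DMSO, 8 of the 129 had an unadjusted p-value below 0.05 (6.2%, all genes 13.9%), and 1 was called, against 4.97% of all genes. This was E2F5, a repressor partner of the RB family, lower in the SMARCB1 line by a log2 difference of -1.005 (standard error 0.251) with an adjusted p of 0.0289 in edgeR's test. This call was lost, leaving 0, without any 1 of the SMARCB1 DMSO, SMARCB1 Dox or GFP DMSO libraries, and it held without either GFP Dox library. Between the lines under Dox, edgeR called 0, against 6.08% of all genes, and DESeq2 called 1 (CKS2, a small CDK-binding protein, lower in the SMARCB1 line). In edgeR 10 fell below an unadjusted p of 0.05 (7.75%, all genes 18.7%).

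Coding length and GC content varied widely among the members, from 426 to 9768 bases and from 35.3% to 68.3%. Their medians were 1680.0 bases and 48.4%, against 1440.0 bases and 52.0% over all genes tested. GC content was lowest among genes of the mitotic apparatus (median 41.0%) and highest in origin licensing (median 51.8%). Across the members, the log2 difference in the SMARCB1 line correlated with coding length at r = -0.21, with GC content at r = 0.0511 and with the mean log2 CPM at r = -0.4, again as descriptions over 47 genes of the same libraries. The last of these includes CCNE2, a member with few footprints and the largest difference.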

How the data were processed

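Ribosome profiling was analysed for 8 libraries of G401 cells, 2 in each of 4 groups taken from the sample labels. The authors isolated ribosomes with the RiboLace kit, aligned reads to hg38 with STAR and counted them with HTSeq (intersection-strict) on coding sequences of GENCODE 42, and the deposited values are raw counts per gene. Tool versions, the strand option, adapter, ribosomal RNA and duplicate handling are not given in the sources used here. Counts without molecular identifiers may include PCR copies.

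The 5 HTSeq rows that name no gene were left out. CPM was computed on the remaining totals, 5924443 to 14000039 counts per library, with a median of 9170557.5. IDs were matched to GENCODE 44 without version, and 311 of 20719 had no match. Density is CPM per kilobase of the MANE Select coding sequence, and uniqueness is the share of its 30-base windows found once in the genome.

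Tests used R 4.3.3 with edgeR 4.0.16 and limma 3.58.1: filterByExpr by group, TMM, and a quasi-likelihood fit of all 8 libraries with 1 term per group, adjusted over the 11097 genes tested. Calls needed an adjusted p-value below 0.05 and a fold change above 2. Fold changes in the text are log2 differences of this fit, and standard errors come from its F statistic. Alternatives were size factors of DESeq2 1.42.0 (RLE), library size alone, the DESeq2 Wald test, no filter beyond 1 count, at least 10 counts in every library, the groups compared alone, the replicate number as a block, robust fitting and leaving out each library. The tests were also run on simulated counts with known changes, and the share recovered is not given here.

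Members were named where they passed the test, where they had the largest or smallest difference of their role in SMARCB1 Dox against SMARCB1 DMSO or between the lines under DMSO, or where they are subunits of a compared complex. Genes of the second list were named at an adjusted p-value below 0.05. RB1, CCNA2, KIF11 across both lines, CKS2, the members named in passing and the 5 printed promoters were chosen after their values were seen. The members and lists were chosen with earlier results of these data known.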

Additional observations from a re-analysis of the deposited data

How the results depend on the processing

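No member was called in SMARCB1 Dox against SMARCB1 DMSO or between the lines under DMSO in any setting run. Leaving out single libraries gave 0 to 1 members called in GFP Dox against GFP DMSO (CCNA2) and 0 to 1 for the difference between the Dox effects (CCNE2), and 0 to 2 between the lines under Dox. The 1 arises without GFP Dox 2 in both, and so do the 2 (CCNE2 and CCNA2), while 0 remained without either SMARCB1 Dox library, GFP Dox 1 or GFP DMSO 1. With the compared groups alone, 0 members were called under Dox, and CCNE2 had 1.44 (adjusted p = 0.0871, edgeR). For the second list the count ranged from 0 to 1 under DMSO and from 0 to 4 under Dox, the 4 without GFP Dox 2, and DESeq2 called 1 under Dox.

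The members' median moved with single libraries from -0.23 to 0.048 in the SMARCB1 line, -0.13 to 0.18 in the GFP line, -0.28 to 0.048 for the difference, -0.16 to 0.08 between the lines under DMSO and -0.24 to 0.018 under Dox. With library size alone it was 0.085 for the difference and 0.021 under Dox. In the SMARCB1 line, BIRC5 ranged from -0.29 to 0.41, E2F2 from -0.74 to 0.22, GINS3 from -0.62 to 0.72 and RRM2 from -0.15 to 0.18, and under DMSO BIRC5 ranged from -0.58 to 0.11 and ORC6 from -0.10 to 0.49. CCNE2 stayed between 0.92 and 1.16 in the SMARCB1 line and between 1.70 and 2.39 for the difference.

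Same-numbered libraries correlated in their deviations from the group means at 0.0454 for GFP Dox with SMARCB1 DMSO and at 0.162 to 0.28 for the other 5 pairs of groups. The labels tie no batch to the number, so the replicate block was kept as an alternative. With the replicate block, RRM2 turned to -0.0045 in the SMARCB1 line, and the counts of members called were the same in all 5 comparisons.

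Subunit ratios moved in single libraries. MCM7 over MCM5 was 8.45 in GFP Dox 1, and GINS1 over GINS3 was 8.74 in SMARCB1 Dox 1 and 21.6 in GFP Dox 1. RRM2 over RRM1 was 1.81 and 1.75 in SMARCB1 Dox, 1.30 in GFP DMSO 1 and 2.08 on unique length. PRIM1 over POLA1 was 2.01 in SMARCB1 Dox 1, 2.02 in SMARCB1 DMSO 2 and 0.963 in GFP Dox 1. CCNB1 over CDK1 was 6.48 in SMARCB1 Dox 1, 6.06 in GFP Dox 1 and 4.57 in GFP DMSO 1, and AURKB over BIRC5 was 5.99 in SMARCB1 DMSO 1 and 3.46 in GFP DMSO 2. With TMM-scaled totals the Dox to DMSO ratios of sums were 1.055 for licensing in the GFP line, 1.18 for G1/S control, 0.976 for G2/M control and 0.883 for the mitotic apparatus in the SMARCB1 line, and 1.03 for the mitotic apparatus in the GFP line. The causes of these shifts were not tested. The difference between the Dox effects cannot be fitted on its compared groups alone, since it uses all 4.

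Members with few counts (GINS3, E2F1, E2F2, CCNE2) rest on the least depth.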
